A study of Mus musculus with 12 samples.

Results

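Claudins are the membrane proteins that form the strands of tight junctions, the seals between neighbouring epithelial cells. The 10 claudin genes described here (Cldn1, Cldn2, Cldn3, Cldn4, Cldn5, Cldn7, Cldn8, Cldn12, Cldn15 and Cldn23) were taken by name from the 55891 genes of the deposited table, which lists 35 claudin genes in all. They were read across 12 mice, each giving 1 library of mRNA from scraped mucosa of the ileum (the end of the small intestine before the colon) at baseline. The mice carried 1 of 2 genotype labels, ERBB3-dIE (6 mice) or Erbb3-FF (6 mice). Neither label is spelled out, and no age, sex, Cre driver or treatment is given in the sources used here. Litter A held ERBB3-dIE mice 4, 5 and 6 and Erbb3-FF mice 3, 4, 5 and 6, and litter B held ERBB3-dIE mice 1, 2 and 3 and Erbb3-FF mice 1 and 2. The series title concerns the receptor tyrosine kinase ErbB3, the barrier of the small intestine and the junctional protein Pmp22, and the comparison of the 2 genotypes bears on that question.

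Which claudins a junction holds sets what passes between its cells. Claudin-2 and claudin-15 form channels for small cations such as sodium, and in the small intestine these carry back the sodium that nutrient uptake needs. The products of Cldn1, Cldn3, Cldn4, Cldn5 and Cldn8 are usually described as sealing, claudin-7 lies largely along the lateral membrane bound to Epcam and is needed for an intact mouse intestine, claudin-12 has been tied to calcium passage, and claudin-23 to the barrier of the gut surface. Claudin-5 is best known from endothelium, the lining of blood vessels.

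Levels are given as TPM, a length-corrected share of each library's transcripts scaled to 1000000. Epcam, Cdh1, Krt8, Krt18, Krt19, Krt20, Vil1, Elf3 and Cdh17, a list of 9 general epithelial genes, summed to 7969 to 10961 TPM in ERBB3-dIE libraries and 9745 to 12466 TPM in Erbb3-FF libraries, and each of the 9 was detected in every library. Libraries reached 1 TPM for 12344 to 13364 genes. Genes with ribosomal sequence took 10.2% and 10.8% of the TPM in Erbb3-FF mice 5 and 6, against at most 1.62% elsewhere. Smooth muscle genes (8 listed) summed to 116 and 115 TPM in ERBB3-dIE mice 4 and 5 and to at most 37.6 TPM elsewhere, and genes of B cell follicles (8 listed) to 312, 143 and 122 TPM in Erbb3-FF mice 1, 2 and 3 and to at most 16.7 TPM elsewhere. Erbb3 itself averaged 142 ± 39.9 TPM in ERBB3-dIE mice and 117 ± 23.7 TPM in Erbb3-FF mice (SD, n = 6 each). A TPM over the whole gene counts reads of any exon that remains, so it does not check the genotype, and ERBB3-dIE and Erbb3-FF stand for the labels throughout. In bulk tissue, fewer cells of a type and less RNA per cell cannot be told apart.

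The claudins fell into an abundant, a moderate and a trace class. Cldn7 was the most abundant, with a mean of 1277 ± 260.3 TPM over the 12 mice (SD), which placed it at rank 78 of all 55891 genes. Cldn3 followed at 399 ± 87.1 TPM, then Cldn15 at 178 ± 39.3 TPM, Cldn2 at 134 ± 15.8 TPM and Cldn4 at 101 ± 37.8 TPM. Cldn23 (26.7 ± 2.58 TPM), Cldn12 (18.3 ± 4.71 TPM) and Cldn8 (5.96 ± 1.78 TPM) made up the moderate class. Cldn5 (0.246 ± 0.226 TPM) and Cldn1 (0.0898 ± 0.0615 TPM) did not reach 1 TPM in any library, so the description of the 10 genes as expressed in the ileum is not borne by these 2. They failed the filter of at least 1 TPM in at least 6 libraries and were not tested across genes, while the other 8 passed.

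The order of the levels was nearly the same in every mouse. Cldn7 exceeded Cldn3, Cldn3 exceeded Cldn15, Cldn4 exceeded Cldn23, Cldn12 exceeded Cldn8 and Cldn8 exceeded Cldn5 in 12 of 12 libraries, with ranges that did not overlap. Cldn23 also exceeded Cldn12 in 12 of 12 libraries, although their ranges overlapped. Cldn15 stood above Cldn2 in 10 of 12 libraries, and Cldn5 above Cldn1 in 9 of 12, with ranges that overlapped, and these orders were not tested. Cldn2 stood above Cldn4 in 6 of 6 ERBB3-dIE libraries and in 4 of 6 Erbb3-FF libraries. Of the 25 claudin genes outside the 10, 14 were at 0 in every library and none reached 1 TPM in any, and only Cldn14 (0.140 TPM on average) and the pseudogene Cldn20 (0.192 TPM) averaged at least 0.1 TPM.

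**Figure D1:**
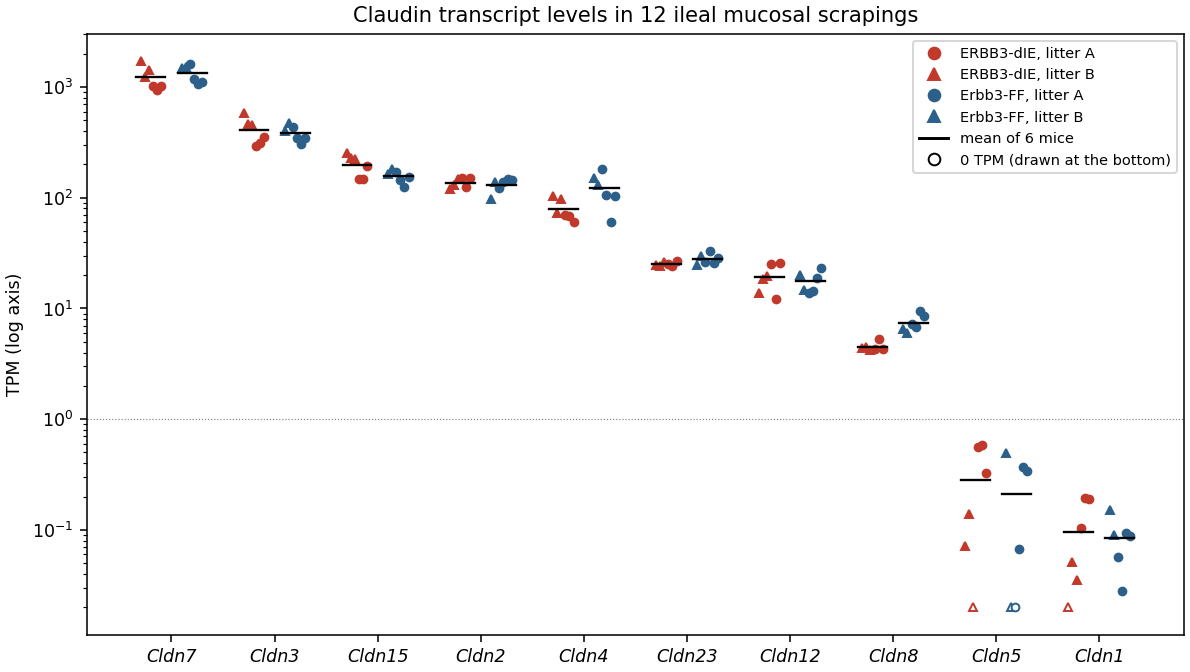
TPM of the 10 claudins (log axis) in each of the 12 mice, ordered by mean level, with ERBB3-dIE left of Erbb3-FF, circles for litter A, triangles for litter B and a black bar for the mean of 6 mice. Cldn8 is the member whose ERBB3-dIE points, between 4.25 and 5.28 TPM, all lie below its Erbb3-FF points, between 6.05 and 9.49 TPM.

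The stretches before the start sites of Cldn4, Cldn15 and Cldn2 are shown because these abundant members, 1 sealing and 2 channel-forming, are followed closely in the comparisons. Of the motifs searched, Cldn4 and Cldn15 hold matches to the same 4 (AP-1, SP, E-box and KLF), and Cldn2 to CDX, TATA box, E-box and KLF. They are the 250 bases before the start site in RefSeq (GRCm38.p6, not the build of the table), 5′ to 3′ on the gene's strand, at chr5:134946935-134947184 (minus), chr5:136967619-136967868 (plus) and chrX:139800558-139800807 (plus). Capitals mark matches to the AP-1 letters TGANTCA in Cldn4 and Cldn15, and to the CDX letters TTTATG and the TATA box letters TATAAA in Cldn2.
Cldn4: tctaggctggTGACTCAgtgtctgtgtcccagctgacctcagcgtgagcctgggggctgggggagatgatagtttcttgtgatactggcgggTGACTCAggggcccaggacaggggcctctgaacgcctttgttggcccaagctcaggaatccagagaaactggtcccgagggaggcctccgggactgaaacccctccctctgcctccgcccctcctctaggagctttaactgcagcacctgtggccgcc
Cldn15: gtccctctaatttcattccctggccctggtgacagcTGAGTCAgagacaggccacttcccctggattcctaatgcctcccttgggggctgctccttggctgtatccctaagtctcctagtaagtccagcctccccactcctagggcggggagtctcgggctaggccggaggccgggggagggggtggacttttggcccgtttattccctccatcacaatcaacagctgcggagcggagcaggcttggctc
Cldn2: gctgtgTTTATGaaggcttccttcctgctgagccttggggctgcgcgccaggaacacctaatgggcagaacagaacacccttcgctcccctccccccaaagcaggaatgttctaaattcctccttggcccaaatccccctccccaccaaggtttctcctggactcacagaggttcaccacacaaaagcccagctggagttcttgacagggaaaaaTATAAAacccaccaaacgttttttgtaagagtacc
Of the 10 claudins 8 had an entry, and Cldn8 and Cldn23 had none. On both strands, the AP-1 letters were in the Cldn4 stretch at −240 and −158 and in the Cldn15 stretch at −214, counted from the start site, and in 6.75% of 32851 promoters. The CDX letters (10.8% of promoters) lay at −244 and the TATA box letters (12.4%) at −35 of Cldn2, and in no other of the 8. The GRHL letters AACCNGTT (1.79%) were found for Cldn5, the HNF4 letters CAAAGTCCA (0.384%) for none, the SP letters GGGCGG (32.7%) for 7, the KLF letters CACCC (52.0%) for 7 and the E-box letters CAGCTG (13.0%) for Cldn2, Cldn4 and Cldn15. The AP-1 match of Cldn15 overlaps an E-box match at −218, and that of Cldn4 at −158 overlaps a KLF match at −161. A match describes the sequence and not a site in use.

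Among the sealing claudins Cldn8, known from the colon and the distal nephron, was lower in the libraries labelled ERBB3-dIE. In litter A it had 4.31, 5.28 and 4.33 TPM in ERBB3-dIE mice, against 7.28, 6.73, 9.49 and 8.48 TPM in Erbb3-FF mice. In litter B it had 4.40, 4.45 and 4.25 TPM in ERBB3-dIE mice, against 6.51 and 6.05 TPM in Erbb3-FF mice. Each ERBB3-dIE mouse lay below each Erbb3-FF mouse, within either litter and between them. The ERBB3-dIE values were tightly grouped, with a mean of 4.50 ± 0.39 TPM against 7.42 ± 1.31 TPM in Erbb3-FF mice (SD, n = 6 each), so the ERBB3-dIE mean was 60.7% of the other.

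With litter in the model, Cldn8 differed by −0.62 on the log2(TPM + 0.5) scale (SE 0.11, 95% interval −0.86 to −0.38), with an adjusted p of 0.0116 by limma with Benjamini-Hochberg adjustment over the 12605 genes tested. It was the single claudin of 8 past the threshold of 0.05, where 5.36% of all tested genes passed, so the count says nothing particular about claudins as a group. It was also the single claudin of 8 whose genotypes did not overlap, where 2.44% of all tested genes did not overlap. Permuting genotype labels in all 924 ways without regard to litter (exact test, 2-sided) gave, for the unadjusted difference of −0.65, p = 0.00216, the smallest that 6 mice against 6 allow. Groups that do not overlap fix this p, so it restates the separation. The call held without each mouse in turn (adjusted p 0.0137 to 0.0355) and without the ribosome-rich Erbb3-FF mice 5 and 6, which held its highest levels (−0.51, adjusted p 0.0355). It was lost without ERBB3-dIE mice 4 and 5, at −0.61 and a limma adjusted p of 0.0914, where 0.849% of all tested genes passed. It was also lost with the B cell follicle level as a covariate, at −0.71 and 0.0768, where 0.381% of all tested genes passed.

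Cldn4, a sealing claudin of many epithelia, had a difference of about the same size as Cldn8 and a wider spread, and did not pass. In litter A it had 70.0, 67.8 and 61.0 TPM in ERBB3-dIE mice, against 181, 107, 60.8 and 104 TPM in Erbb3-FF mice. In litter B it had 104, 73.3 and 98.1 TPM in ERBB3-dIE mice, against 150.0 and 129.6 TPM in Erbb3-FF mice. Erbb3-FF mouse 5 fell below all 6 ERBB3-dIE mice, whereas 4 of the 6 Erbb3-FF mice lay above all of them. Within litter B the genotypes did not overlap, as in 32.5% of all tested genes in that litter. The means were 79.0 ± 17.6 TPM in ERBB3-dIE mice and 122 ± 41.5 TPM in Erbb3-FF mice (SD, n = 6 each), and the log2 difference was −0.64 (SE 0.21, 95% interval −1.11 to −0.18, limma adjusted p 0.102). For the difference unadjusted for litter, −0.57, the exact permutation p over the same relabellings was 0.0606.

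Cldn4 passed in 4 of 28 alternatives, and in 1 of the 12 fits that left out 1 mouse each. Without Erbb3-FF mouse 5, the difference was −0.79 with a limma adjusted p of 0.0204, and without Erbb3-FF mice 5 and 6 it was −0.84 with 0.0349. With library weights and all 12 mice it was −0.59 with 0.0402. Erbb3-FF mice 1, 2 and 3, the libraries rich in B cell follicle genes, held its highest levels, and with that gene level as a covariate the Cldn4 difference was −0.35 (adjusted p 0.583). In the authors' deposited table, Cldn4 had a log2 fold change of −0.59 with an adjusted p of 0.00193, and Cldn8 one of −0.71 with 0.000435; 12.6% of the genes with an adjusted p in that table were under 0.05.

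The remaining sealing and lateral claudins did not pass. Cldn7, the bulk of the claudin mRNA, had 945, 1127 and 1726 TPM as its lowest, median and highest level in ERBB3-dIE mice and 1076, 1327 and 1602 TPM in Erbb3-FF mice. Its groups overlapped, and the log2 difference was −0.20 (95% interval −0.47 to 0.07, adjusted p 0.388). Within litter A alone the 3 ERBB3-dIE mice (1033, 945 and 1017 TPM) lay below the 4 Erbb3-FF mice (1602, 1177, 1076 and 1113 TPM), a separation that 19.1% of all tested genes showed in that litter. Cldn3 overlapped throughout, with 291, 407 and 582 TPM as the lowest, median and highest in ERBB3-dIE mice and 305, 375 and 477 TPM in Erbb3-FF mice. Its difference was −0.01 (−0.27 to 0.24, adjusted p 0.966), an interval that leaves room for shifts of up to about that size in either direction. The annotation places the antisense gene Wbscr25 over Cldn3, and whether strand was used in counting is not given; Wbscr25 itself averaged 0.260 ± 0.185 TPM in ERBB3-dIE mice and 0.225 ± 0.156 TPM in Erbb3-FF mice.

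Cldn23 and Cldn12 also overlapped between genotypes. Cldn23 was the steadiest member, with 24.2, 25.1 and 26.9 TPM as the lowest, median and highest in ERBB3-dIE mice and 24.9, 27.5 and 32.8 TPM in Erbb3-FF mice (log2 difference −0.13, 95% interval −0.32 to 0.05, limma adjusted p 0.394). For Cldn12 these were 12.1, 19.0 and 25.6 TPM in ERBB3-dIE mice and 13.9, 16.7 and 23.4 TPM in Erbb3-FF mice (0.12, −0.35 to 0.58, adjusted p 0.791). The Cldn12 interval is among the widest of the 8 and excludes neither a fall nor a rise of appreciable size.

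The channel-forming claudins had positive genotype differences, which did not pass. Cldn15 had 149, 147 and 192 TPM in ERBB3-dIE mice of litter A, against 172, 146, 126 and 155 TPM in Erbb3-FF mice of that litter. In litter B it had 256, 227 and 224 TPM in ERBB3-dIE mice, against 163 and 181 TPM in Erbb3-FF mice. Its groups overlapped in litter A and did not in litter B, as for 32.5% of all tested genes in litter B, and 4 of the 6 ERBB3-dIE mice lay above every Erbb3-FF mouse. The means were 199 ± 44.4 TPM in ERBB3-dIE mice and 157 ± 19.6 TPM in Erbb3-FF mice (SD, n = 6 each), a log2 difference of 0.25 (SE 0.11, 95% interval 0.01 to 0.49) that missed the threshold with a limma adjusted p of 0.203. It passed in 2 of 28 alternatives, with the smooth muscle gene level as a covariate (0.28, adjusted p 0.0428) and in the authors' deposited table (0.33, 0.0399). The 12 fits that left out 1 mouse each did not call it (adjusted p 0.117 to 0.379), and with the B cell follicle level as a covariate it was 0.22 with 0.554.

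Cldn2, a channel claudin known from crypts, did not pass either. Its lowest, median and highest levels were 121, 138 and 149 TPM in ERBB3-dIE mice and 97.5, 139.7 and 146 TPM in Erbb3-FF mice, with a log2 difference of 0.09 (95% interval −0.14 to 0.32, limma adjusted p 0.653). Of the 8 claudins tested, 3 had a positive and 5 a negative genotype difference, and their median of −0.07 compared with −0.00066 over all tested genes.

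Of the claudins below the filter, Cldn5 had 0, 0.233 and 0.580 TPM as the lowest, median and highest level in ERBB3-dIE mice and 0, 0.204 and 0.497 TPM in Erbb3-FF mice, and its groups overlapped. The 6 libraries with 0.328 TPM or more of Cldn5 were the 6 with the highest sums of 8 endothelial genes, at 9.69 TPM or more, and the other 6, with at most 0.138 TPM of Cldn5, had endothelial sums of at most 8.43 TPM. Sums of 7 stromal (connective tissue) genes split the libraries the same way, at 28.9 TPM or more against at most 28.3 TPM. The match is thus not particular to endothelial genes. Endothelial sums lay between 5.94 and 16.7 TPM in ERBB3-dIE mice and between 4.14 and 13.3 TPM in Erbb3-FF mice. Cldn1 had 0, 0.0771 and 0.193 TPM in ERBB3-dIE mice and 0.0280, 0.0889 and 0.150 TPM in Erbb3-FF mice. The authors' mean normalized counts of 3.51 for Cldn5 and 3.10 for Cldn1 show how few reads lie behind these levels.

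A second scale set each claudin against the mean log2 level of the 9 epithelial genes in the same library. That mean was 9.41 ± 0.14 in ERBB3-dIE libraries and 9.62 ± 0.12 in Erbb3-FF libraries (SD, n = 6 each; Cdh17 at −0.52 and Krt20 at −0.59 were called lower and Krt18, at 0.34, higher), and the median of all tested genes stood at 0.22 on this scale and 14.1% of them passed. Here Cldn15 was the single claudin of 8 called, at 0.47 (SE 0.09, 95% interval 0.27 to 0.68, limma adjusted p 0.0107), or 0.25 above the median of all tested genes. It was called without each mouse in turn (adjusted p 0.00492 to 0.0341) and when the scale was built from the 6 epithelial genes not called for genotype (0.46, adjusted p 0.0135). With the B cell follicle level as a covariate it was 0.47 with an adjusted p of 0.0509. Cldn2 stood at 0.31 (adjusted p 0.0584), Cldn8 at −0.40 (0.0967) and Cldn4 at −0.42 (0.145), so Cldn8 did not pass on this scale. The change of scale shifts the difference of every gene by the same amount. By construction, each claudin keeps its distance from the median of all tested genes, −0.62 for Cldn8 on either scale. This distance is no separate result.

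**Figure D2:**
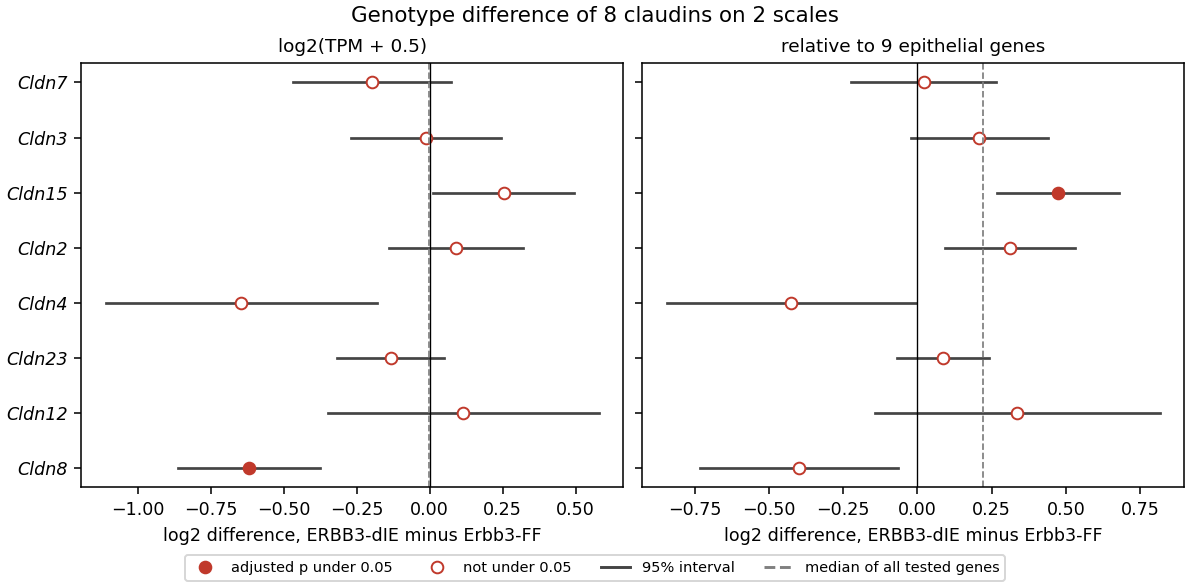
Log2 difference of the 8 tested claudins, ERBB3-dIE minus Erbb3-FF with litter in the model, on the log2(TPM + 0.5) scale (left) and relative to 9 epithelial genes (right); lines are 95% intervals, filled points passed an adjusted p of 0.05, and the dashed line is the median of all tested genes. Cldn8 is filled at −0.62 on the left, and Cldn15 is filled at 0.47 on the right, where the dashed line sits at 0.22.

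The make-up of the claudin mRNA is free of the library total. Together the 10 claudins summed to 2103 ± 454 TPM in ERBB3-dIE mice and 2178 ± 331 TPM in Erbb3-FF mice. Cldn7 made up 58.1 ± 2.04% of this sum in ERBB3-dIE mice and 60.8 ± 1.94% in Erbb3-FF mice. Cldn3 made up 19.4 ± 1.67% in ERBB3-dIE mice and 17.7 ± 0.789% in Erbb3-FF mice. Cldn15 took 8.52% to 10.5% in ERBB3-dIE mice and 6.74% to 8.06% in Erbb3-FF mice, without overlap. Cldn15 was the single claudin of 8 that did not overlap, where 2.21% of all tested genes did not overlap when set against the same sum. Cldn4 took 3.77 ± 0.36% in ERBB3-dIE mice and 5.48 ± 1.24% in Erbb3-FF mice, with Erbb3-FF mouse 5 inside the ERBB3-dIE range. Cldn2 shares overlapped at 6.78 ± 1.61% in ERBB3-dIE mice and 6.23 ± 1.64% in Erbb3-FF mice.

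Ratios within a library need no sum over members. There were 0.144 to 0.189 Cldn15 transcripts per Cldn7 transcript in ERBB3-dIE mice and 0.108 to 0.140 in Erbb3-FF mice. Of the 7 other tested claudins, Cldn15 was the single one whose ratio to Cldn7 did not overlap between genotypes, where 1.74% of all tested genes did not overlap. Set against Cldn3, none of the 7 separated (2.58% of all tested genes did), and Cldn15 per Cldn3 was 0.439 to 0.536 in ERBB3-dIE mice and 0.379 to 0.446 in Erbb3-FF mice. These ratios share their denominators and were given no test.

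**Figure D3:**
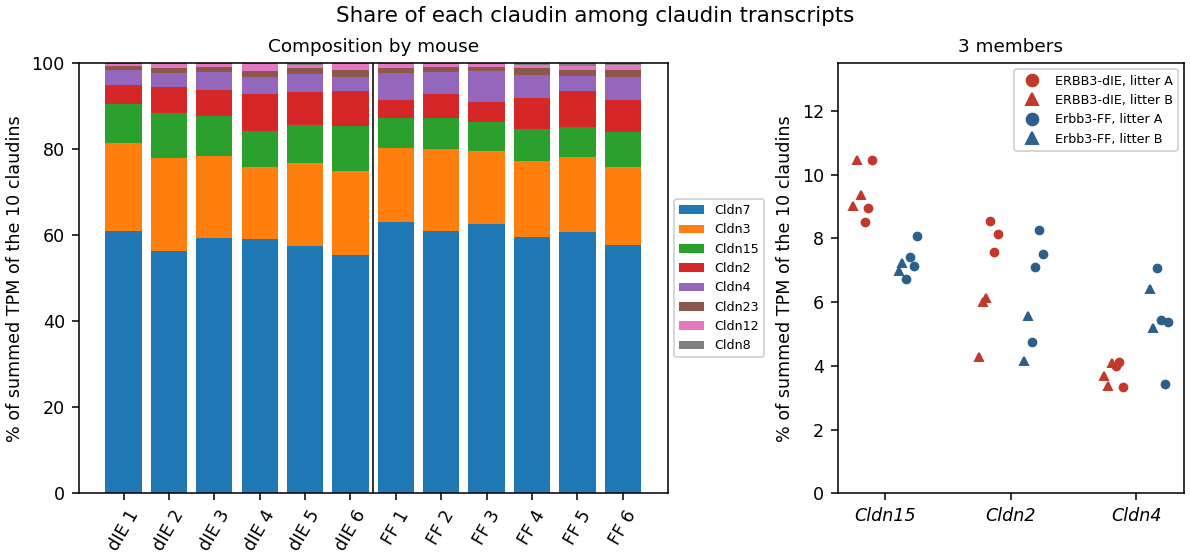
Share of each claudin in the summed TPM of the 10 claudins, for each mouse (left, ERBB3-dIE left of Erbb3-FF; Cldn5 and Cldn1 are too low to draw) and for Cldn15, Cldn2 and Cldn4 by genotype (right, circles litter A, triangles litter B). The Cldn15 shares, 8.52% to 10.5% in ERBB3-dIE mice and 6.74% to 8.06% in Erbb3-FF mice, do not overlap.

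Between the litters, the abundant claudins Cldn7, Cldn3, Cldn15 and Cldn4 had higher means in litter B and Cldn2 a lower one, and Cldn3 passed the test. It was the single claudin of 8 called for litter, where 8.55% of all tested genes passed, with 477 ± 65.6 TPM in litter B (n = 5) and 343 ± 47.1 TPM in litter A (n = 7), a log2 difference of 0.48 (SE 0.12, 95% interval 0.22 to 0.74, limma adjusted p 0.0362). The ranges of the litters overlapped for all 8 claudins, as they did for all but 2.15% of all tested genes. For Cldn3 and Cldn7 the overlap came from Erbb3-FF mouse 3 of litter A alone, at 433 and 1602 TPM. The other litter A mice reached at most 358 and 1177 TPM, and the litter B mice had at least 402 and 1221 TPM. The villus enterocyte sum of that mouse was 17931 TPM, against at most 7133 TPM in the other litter A mice. Without it, 3039 genes were called for litter, against 1078 in the main fit. Cldn15, at 0.38 (adjusted p 0.0551), and Cldn7, at 0.42 (0.0603), missed the threshold, as did Cldn4 at 0.43 (0.205), Cldn8 at −0.19 (0.290), Cldn2 at −0.16 (0.337), Cldn12 at −0.12 (0.748) and Cldn23 at −0.03 (0.839). The Cldn3 call was lost without 10 of the 12 mice in turn, with a difference of 0.41 to 0.57 and an adjusted p of 0.00494 to 0.0879 over the 12 fits, and without ERBB3-dIE mice 4 and 5, the smooth-muscle-rich libraries of litter A, its difference was 0.36 (adjusted p 0.221). Epithelial markers moved with litter too. Of 7 goblet cell genes 4 were higher in litter B (Clca1 1.35, Fcgbp 1.13, Zg16 0.94 and Tff3 0.89), the list summing to 26437 to 62025 TPM in litter B and 15177 to 28371 TPM in litter A. Spdef (−0.40), Agr2 (−0.46) and Muc2 (−0.32) went the other way and were not called, so the goblet list was split. Of 8 villus enterocyte genes 2 were higher (Apoa1 1.69 and Alpi 0.98), the list summing to 6098 to 15068 TPM in litter B and 1914 to 17931 TPM in litter A. The part of these markers in the Cldn3 difference was not tested.

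Whether the genotype difference itself depended on litter was tested by the interaction term. None of the 8 claudins passed (0 of all 12605 genes did, and 1174 of them but 0 claudins had an unadjusted p under 0.05), with adjusted p-values of 0.685 to 0.982 by limma. For Cldn15 the genotype difference was 0.11 within litter A and 0.45 within litter B, and the difference between them was 0.34 (SE 0.21, 95% interval −0.13 to 0.80). For Cldn8 it was −0.72 within litter A and −0.48 within litter B (difference 0.24, −0.25 to 0.73), and for Cldn4 it was −0.66 within litter A and −0.62 within litter B (0.05, −0.95 to 1.04). These intervals are wide, with 2 Erbb3-FF mice in litter B.

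**Figure D4:**
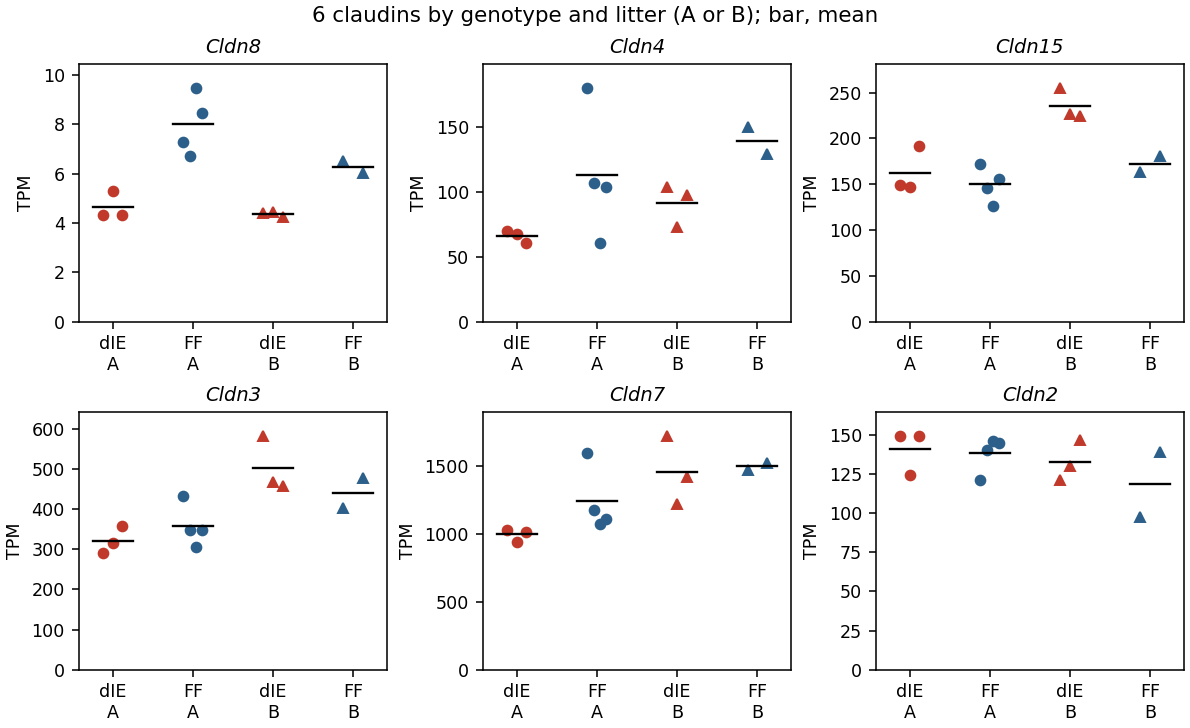
TPM of 6 claudins in each mouse, by genotype within litter A and within litter B, ERBB3-dIE left of Erbb3-FF, with a bar for the mean of each set. Cldn8 is lower in ERBB3-dIE mice of both litters, whereas the Cldn15 genotypes separate in litter B (224 to 256 TPM against 163 and 181 TPM, as 32.5% of all tested genes do there) and overlap in litter A; the interaction was not called.

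Some members varied together across the mice. Pearson r of log2 levels over the 12 libraries was 0.87 for Cldn3 with Cldn15, 0.86 for Cldn3 with Cldn7 and 0.79 for Cldn4 with Cldn7, and within genotype these were 0.97, 0.92 and 0.83. Cldn15 and Cldn4, at 0.15 over all mice, stood at 0.68 within genotype. Cldn8 with Cldn15 gave −0.68 over all mice and −0.53 within genotype. These points share their libraries, tissue make-up and scaling, and the values are a description. Each r within genotype, here and below, had only the genotype means removed, so litter differences remain in it. Cldn3, Cldn4, Cldn7 and Cldn15 stood 0.38 to 0.48 higher in litter B. Cldn3 and Cldn4 are neighbouring genes on chromosome 5, and their r was 0.50 over all mice and 0.71 within genotype.

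Of 8541 genes compared, those most like Cldn8 over the 12 libraries were Pmp22 (r = 0.85), the actin-binding gene Coro1c (0.84) and the chloride transporter gene Clcn5 (0.83). Pmp22 averaged 196 ± 45.0 TPM in ERBB3-dIE mice and 693 ± 96.8 TPM in Erbb3-FF mice, so the likeness is that of 2 genes low in the same 6 mice. Within genotype, r with Cldn8 was −0.09 for Pmp22, −0.04 for Clcn5 and 0.53 for Coro1c. Cldn4 was most like Ist1 (0.96) and Chmp1b (0.95), both of the membrane-remodelling ESCRT machinery, and the interferon-induced Oasl1 (0.94), and within genotype these remained at 0.95, 0.95 and 0.94. Cldn15 was most like the selenophosphate synthetase gene Sephs2 (0.96), the class I histocompatibility gene H2-D1 (0.95), whose reads related H2 genes can share, and the leukotriene A4 hydrolase gene Lta4h (0.95), which stood at 0.95, 0.93 and 0.94 within genotype. Cldn3 was most like Tmem98, Cryl1 and Pttg1ip (0.97 each), and Cldn5 like Josd2 (0.89), Parp2 (0.88) and Gpx3 (0.87).

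Of the other tight junction genes (26 listed, 22 tested) 4 were lower in ERBB3-dIE mice and none higher, where 5.36% of all tested genes passed (467 lower and 209 higher). These were the polarity scaffold genes Pals1 (−0.49, limma adjusted p 0.0206) and Patj (−0.48, 0.0382), Tjp1, which encodes the scaffold ZO-1 that binds claudin tails (−0.34, 0.0378), and Cgn, which encodes the adaptor cingulin (−0.33, 0.0391). The median of the 22 was −0.23, and Ocln (occludin) stood at −0.24 (adjusted p 0.186). On the scale of the epithelial genes 2 of the 22 were higher (Ybx3 0.47 and Tjp3 0.27) and none lower, where 14.1% of all tested genes passed, with a median of −0.01 against 0.22 over all tested genes. Of the genes that act on claudins (18 listed, 15 tested), Mylk, whose kinase contracts the junctional actomyosin ring (−0.56, 0.0398), and Il22ra1, a receptor chain for interleukin-22 (−0.58, 0.0423), were lower and none was higher. On the scale of the epithelial genes 1 of the 15, Cdx1, was higher (0.49, limma adjusted p 0.0201) and none was lower. Mylk (−0.34, 0.0846) and Il22ra1 (−0.36, 0.0942) were not called there. For litter, where 8.55% of all tested genes passed, Ocln (0.44), Epcam (0.44) and the protease inhibitor genes Spint1 (0.51) and Spint2 (0.52) were higher in litter B.

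Markers of epithelial states moved with genotype beside the claudins, in a comparison in which 5.36% of all tested genes passed. In ERBB3-dIE mice 5 of 8 villus enterocyte genes were lower (Nt5e −2.70, Ada −2.39, Alpi −1.91, Fabp2 −1.44 and Apoa1 −1.71), and their list summed to 1914 to 9082 TPM in ERBB3-dIE mice and 6354 to 17931 TPM in Erbb3-FF mice. Of 7 goblet cell genes 3 were higher (Spdef 1.14, Agr2 1.07 and Muc2 0.89), the list summing to 22324 to 62025 TPM in ERBB3-dIE mice and 15177 to 28481 TPM in Erbb3-FF mice, and of 6 Paneth cell genes Mmp7 was higher (1.21). Of 7 tested genes of the epithelium over lymphoid follicles Marcksl1 was lower (−0.94), whereas 4 had positive differences that were not called, and the median of the 7 was 0.04. No tested gene of the endothelial, smooth muscle, stromal, B cell, crypt, macrophage or lymphatic lists was called. In that order, 4 of 8, 5 of 8, 5 of 7, 2 of 8, 8 of 8, 5 of 6 and 1 of 4 genes were tested. The 2 tested B cell genes, Cd79a and Cd79b, each stood at −1.6, so the lack of a call does not show equal content. The part of these shifts in the Cldn8, Cldn4 and Cldn15 values was not tested.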

How the data were processed

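The authors deposited 1 table of 55891 genes with TPM per library, each library summing to 1000000, so read depth per library is lost and a rise of abundant genes lowers all others. The tools and build named per the submitters' processing notes are Salmon 1.10.0, CASAVA, DESeq2 and GRCm39; per the labels' protocols, stranded mRNA libraries gave single-end reads of 75 bases. Per the file headers the table also holds the authors' mean normalized count (a signal), their log2 fold change with its standard error, Wald score, p-value and adjusted p-value; the model behind them, the annotation release and strand use are not stated in the sources at hand. Here log2(TPM + 0.5) was fitted with limma 3.58.1 in R 4.3.3 (variance trend, litter and genotype additive) over the 12605 genes at or above 1 TPM in 6 or more libraries, with Benjamini-Hochberg adjustment over all of them and a threshold of 0.05. A fold on this scale understates changes of low genes. Each mouse is 1 replicate. The fits were tested on simulated data with independent noise for each gene. Those data held no shared shift in tissue make-up or between libraries, so that test does not cover such shifts. Neighbouring genes come from a GRCm38 annotation, used for names and order. The claudins, gene lists and tests were chosen with earlier results of these data known; all 10 claudins are named, the 3 genes most like a member (of genes with a mean of at least 5 TPM) are named for members past the threshold, Cldn4 and Cldn5, and up to 4 called genes a list, except that the 5 villus genes are all given. Python 3.11.15 and matplotlib 3.10.9 drew the figures.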

Additional observations from a re-analysis of the deposited data

Results flagged for a closer look

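ERBB3-dIE mouse 5 stood apart from the other ERBB3-dIE mice in Cldn8, at 5.28 TPM against 4.45 TPM in the nearest other mouse. It was the single case of 20 groups examined (10 claudins in 2 genotypes), and chance flags about 1 group in 20. This library was also 1 of the 2 rich in smooth muscle genes, and its Cldn8 level still lay below the lowest Erbb3-FF mouse, at 6.05 TPM. Without this mouse the Cldn8 difference was −0.65 (limma adjusted p 0.0254).

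Cldn1 differed in opposite directions in the litters. In litter A the 3 ERBB3-dIE mice (0.103, 0.193 and 0.189 TPM) lay above the 4 Erbb3-FF mice (0.0567, 0.0280, 0.0933 and 0.0880 TPM), a mean log2 difference of 0.22. In litter B the 3 ERBB3-dIE mice (0, 0.0511 and 0.0354 TPM) lay below the 2 Erbb3-FF mice (0.150 and 0.0898 TPM), a difference of −0.23. Over the genes that passed the filter, which Cldn1 did not, 19.1% had genotypes that did not overlap in litter A and 32.5% in litter B. The difference between litters was not tested, and the authors' mean normalized count of 3.10 per library is the reading depth behind it.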

How the results depend on the processing

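Cldn8 was called lower in 24 of 28 alternative fits of the genotype comparison and had the same sign in all 28; Cldn15 on the epithelial scale was called in 23 of 26. The number of claudins called for genotype, 1, became 2 with library weights (Cldn4 and Cldn8), 2 with a smooth muscle covariate (Cldn8 and Cldn15), 2 without Erbb3-FF mice 5 and 6 (Cldn4 and Cldn8), 3 in the authors' deposited table (Cldn4, Cldn8 and Cldn15), and 0 within litter A alone (Cldn8 −0.72, limma adjusted p 0.138), within litter B alone (−0.48, 0.339), with a B cell follicle covariate and without ERBB3-dIE mice 4 and 5. Leaving out each mouse gave 1 to 2. For litter, 1 became 3 with library weights and 0 with no filter, with median-ratio rescaling and with rescaling that leaves out mitochondrial and ribosomal genes. It was also 0 within ERBB3-dIE mice (Cldn3 0.64, limma adjusted p 0.0521), within Erbb3-FF mice, and without either pair of libraries. Without ERBB3-dIE mice 4 and 5, 0 of all tested genes were called for litter, against 1078 in the main fit. Leaving out each mouse gave 0 to 4 claudins, the 4 without Erbb3-FF mouse 3, where 3039 genes were called. On the epithelial scale, 1 became 2 with library weights (Cldn2 and Cldn15), where 3689 genes were called against 1781 in the main fit. It became 0 within litter A alone, within litter B alone (39 genes called) and with the B cell follicle covariate. Leaving out each mouse gave 1 to 2 claudins on this scale. No claudin was called for the interaction in any of 21 alternatives. The cause of these changes was not tested; single-litter fits hold fewer samples. The fits without pairs of libraries, with the B cell follicle covariate and with 6 epithelial genes were chosen after seeing the data.

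With mouse number as a replicate block in place of litter, 1 claudin was called for genotype (Cldn8 −0.65, adjusted p 0.0199) and 1 on the epithelial scale (Cldn15). The shared numbers are not stated to pair mice, their correlations were 0.07 to 0.36, and 2 of 6 mice correlated best with their own number.

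Over all genes, the 676 genotype calls lay between 0 (litter A alone) and 1950 (authors' table) across alternatives, the 1078 litter calls between 0 and 3039, the 1781 calls on the epithelial scale between 39 and 3689, and the 0 interaction calls between 0 and 53. Litter calls split into 902 higher and 176 lower in litter B, against 478 and 304 with median-ratio rescaling and 389 and 257 without mitochondrial and ribosomal genes, where the median of all genes was −0.08 against 0.05 and Cldn3 stood at 0.35 (adjusted p 0.0617). TPM carry no depth, so counting error of Cldn1, Cldn5 and Cldn8 cannot be set from them. The authors' mean normalized count was 144 for Cldn8, against 3.10 for Cldn1 and 3.51 for Cldn5.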
